A study of Mus musculus with 37 samples.

Results

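A set of inhibitory receptor genes of leukocytes, 7 of the 53700 genes counted in each library, were followed across sorted uterine NK (uNK) cells: *Lilrb4a*, *Lilr4b*, *Pirb*, *Lair1*, *Cd300a*, *Ceacam1* and *Siglecg*. The set was chosen by gene name around *Lilrb4a* and *Lilr4b*, which were chosen by their higher counts in Ly49C/I+ cells in these same libraries. The differences of these 2 genes are therefore given as a description, with no test. All 7 genes were found by symbol in the 37 libraries, and 3 of them (*Lilrb4a*, *Lilr4b* and *Lair1*) passed the filter on low counts of every comparison (5 CPM or more in 0.5 or more of its libraries). CPM is the count divided by the library's scaled total in megareads.

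The cells were live CD45+ NKp46+ cells sorted from the pregnant uterus of C57BL6 mice between gestation days 9.5 and 10.5, after exclusion of T, B and CD11b high cells. WT mice gave 9 uneducated (NKG2A- and Ly49C/I-), 9 NKG2A+ and 6 Ly49C/I+ libraries. NKG2A KO C57BL6 mice gave 8 uneducated and 5 Ly49C/I+ libraries. NKG2A and Ly49C/I are receptors for MHC class I. In mice without NKG2A the uneducated gate can also take cells that would have carried it. The paper lists the antibody for this marker as NKG2AC/E, so the gate may not read NKG2A alone. Nothing in the labels ties a library to one animal, so a p measures the spread between libraries, part of which may be technical.

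Receptors of this type carry immunoreceptor tyrosine-based inhibitory motifs (ITIMs) in the cytoplasmic tail. When an adjoining activating receptor is engaged, Src family kinases phosphorylate the tyrosine, and the motif then recruits the phosphatases SHP-1, SHP-2 or SHIP-1, which lower the activating signal. Lilrb4a (gp49B) is known from mast cells, macrophages and activated NK cells and binds integrin αvβ3. Pirb binds MHC class I, Lair1 binds collagens, Cd300a binds phospholipids on dying cells, Ceacam1 binds other CEACAM molecules, and Siglecg binds sialic acid, as on CD24.

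In the GENCODE M21 annotation of GRCm38, the pair around which the set was chosen are neighbours on the plus strand of chromosome 10, *Lilr4b* (ENSMUSG00000112023) at chr10:51480632-51486703 and *Lilrb4a* (ENSMUSG00000112148) at chr10:51490956-51496611. *Pirb* (ENSMUSG00000058818, chr7:3711409-3720391), *Lair1* (ENSMUSG00000055541, chr7:4003402-4063204) and *Ceacam1* (ENSMUSG00000074272, chr7:25461707-25477603) lie on the minus strand of chromosome 7. *Siglecg* (ENSMUSG00000030468, chr7:43408204-43418358) lies on the plus strand of the same chromosome. *Cd300a* (ENSMUSG00000034652, chr11:114890041-114904654) lies on the plus strand of chromosome 11.

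The label of the set holds for 6 of the 7 genes by sequence. The coding sequence of 1 GENCODE M21 transcript of each gene was translated, and the stretch after its most hydrophobic 19 residues, taken as the cytoplasmic tail, was searched for an ITIM (isoleucine, valine, leucine or serine, then any residue, a tyrosine, any pair of residues, and isoleucine, leucine or valine). There were 2 matches in Lilrb4a, 3 in Pirb, 2 in Lair1, 2 in Cd300a, 1 in Ceacam1 and 3 in Siglecg. There were 0 in Lilr4b (gp49A), whose tail after this stretch is 42 residues long against 74 in Lilrb4a. The translated proteins of Lilrb4a (335 residues) and Lilr4b (303 residues) are otherwise alike, with 270 of 303 aligned residues identical (89.1%). The end of the Lilr4b coding sequence shows how the pair part. Both genes hold the same run of 13 bases there, which starts on the first base of a codon in Lilrb4a and on the last base of a codon in Lilr4b. Capitals mark the tyrosine codon of the first ITIM in Lilrb4a (coding bases 851 to 943 of ENSMUST00000078778) and the stop codon of Lilr4b (coding bases 853 to 912 of ENSMUST00000102894), both 5′ to 3′ on the coding strand.
Lilrb4a: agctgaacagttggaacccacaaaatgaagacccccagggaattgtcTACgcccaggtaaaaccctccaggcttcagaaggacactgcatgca
Lilr4b: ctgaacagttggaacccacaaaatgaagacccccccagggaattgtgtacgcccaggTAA

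The coding sequences of the other matches are shown for the members whose values are described most fully below, with the codon of the tyrosine in capitals.
Lilrb4a second match, coding bases 958 to 975: gtaaccTATgcccagttg
Lair1 first match, coding bases 676 to 693 of ENSMUST00000086401: gtgacgTATatccagctg
Lair1 second match, coding bases 763 to 780 of ENSMUST00000086401: agcacaTATgcagccatc
Ceacam1 match, coding bases 1456 to 1473 of ENSMUST00000098669: gtcgcaTACactgtcctg

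Between 13287163 and 18875033 reads were counted on genes per library (median 17273311). The sorted receptors followed their labels at *Klrc1* (NKG2A), which lay at 494 to 759 CPM in NKG2A+ cells and at or under 13.8 CPM in the other 28 libraries. *Klrc1* was already at 1.25 to 13.8 CPM in WT uneducated cells, so its 0.766 to 3.8 CPM in NKG2A KO libraries is no check of the deletion. *Klra9* (Ly49I) lay at 462 to 1137 CPM in the 11 Ly49C/I+ libraries and at or under 123 CPM elsewhere. *Klra3* (Ly49C), a near copy of other Ly49 genes, lay lower in the Ly49C/I+ libraries (25.2 to 107 CPM) than the mean of each other group (137 to 167 CPM). All 10 NK cell markers averaged at least 5 CPM in every group.

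*Lilrb4a* was lowest in uneducated cells, intermediate in NKG2A+ cells and highest in Ly49C/I+ cells. WT uneducated libraries ran from 18.2 to 37.8 CPM with a median of 20.6 CPM. NKG2A+ libraries ran from 24.5 to 65.5 CPM (median 30.1 CPM), and WT Ly49C/I+ libraries from 59.4 to 96.8 CPM (median 77.2 CPM). Every WT Ly49C/I+ library lay above every WT uneducated library, while 4 of the 9 NKG2A+ libraries did. *Lilrb4a* and *Lilr4b* were chosen for their rise in Ly49C/I+ cells, and the share of all genes with groups so apart was not counted. In NKG2A KO mice, uneducated libraries ran from 12.5 to 63.3 CPM (median 25.6 CPM). The 5 NKG2A KO Ly49C/I+ libraries, replicates 4 to 8, held 88.7, 62.2, 50.6, 59.7 and 59.7 CPM. The KO groups overlapped through uneducated replicate 4 alone, since the next highest uneducated library held 39.3 CPM.

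*Lilr4b*, the neighbour without an ITIM, had the same order of groups at a higher level. WT uneducated libraries ran from 52.6 to 103 CPM (median 79.2 CPM). NKG2A+ libraries ran from 76.7 to 216 CPM (median 119 CPM), and WT Ly49C/I+ libraries from 125 to 236 CPM (median 219 CPM). Again, with the same limit, every WT Ly49C/I+ library lay above every WT uneducated one, as did 6 of the 9 NKG2A+ libraries. NKG2A KO uneducated libraries ran from 72.6 to 152 CPM (median 86.7 CPM). The 5 NKG2A KO Ly49C/I+ libraries held 209, 209, 130, 139 and 163 CPM, and uneducated replicate 4 was again the one KO uneducated library inside their range. WT Ly49C/I+ replicates 7 and 8 were the lowest of their group for both genes.

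**Figure D1:**
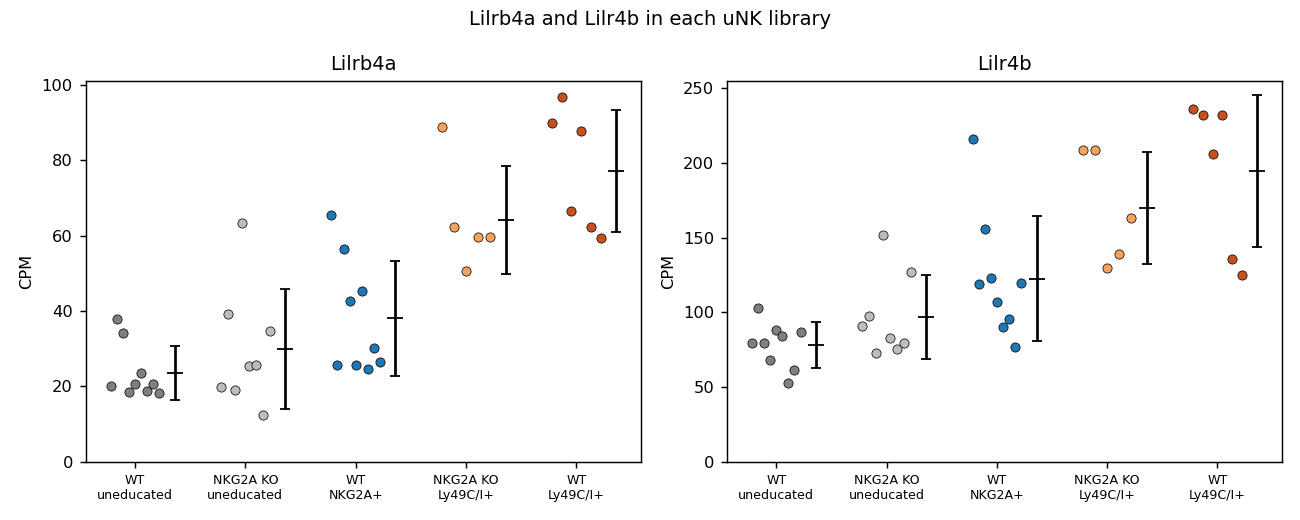
CPM of *Lilrb4a* (left) and *Lilr4b* (right) in each of the 37 libraries, by group, with the mean and SD of each group as a tick and bar. For both genes, which were chosen for this rise, the points of WT Ly49C/I+ cells lie above all points of WT uneducated cells. NKG2A+ points lie between and overlap both.

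The fitted differences had the same sign for both genes in all 7 comparisons, though not with the replicate number as a block for KO over WT Ly49C/I+ cells (-0.04 for *Lilrb4a* and 0.06 for *Lilr4b*). In WT mice the log2 fold change of Ly49C/I+ over uneducated cells was 1.71 ± 0.190 (SE) for *Lilrb4a* and 1.32 ± 0.163 (SE) for *Lilr4b*. NKG2A+ cells exceeded uneducated cells by 0.70 ± 0.217 for *Lilrb4a* and 0.66 ± 0.167 for *Lilr4b*. The direct difference of NKG2A+ from Ly49C/I+ cells was -1.02 ± 0.220 for *Lilrb4a* and -0.66 ± 0.198 for *Lilr4b*. In NKG2A KO mice the Ly49C/I+ cells exceeded the uneducated ones by 1.08 ± 0.287 for *Lilrb4a* and by 0.79 ± 0.176 for *Lilr4b*. These comparisons share groups, so the values are not independent of each other.

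Between genotypes the fitted differences of the pair were smaller than those between populations. KO over WT uneducated cells came to 0.35 ± 0.259 (log2, SE) for *Lilrb4a* and 0.32 ± 0.155 for *Lilr4b*. KO over WT Ly49C/I+ cells came to -0.27 ± 0.175 for *Lilrb4a* and -0.20 ± 0.189 for *Lilr4b*. The Ly49C/I+ effect was smaller in KO than in WT mice by a log2 difference of -0.62 ± 0.361 for *Lilrb4a* and of -0.52 ± 0.255 for *Lilr4b*. Without KO uneducated replicate 4 the KO over WT difference in uneducated cells was 0.10 for *Lilrb4a* and 0.20 for *Lilr4b*, and the Ly49C/I+ effect in KO mice was 1.33 and 0.91.

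**Figure D2:**
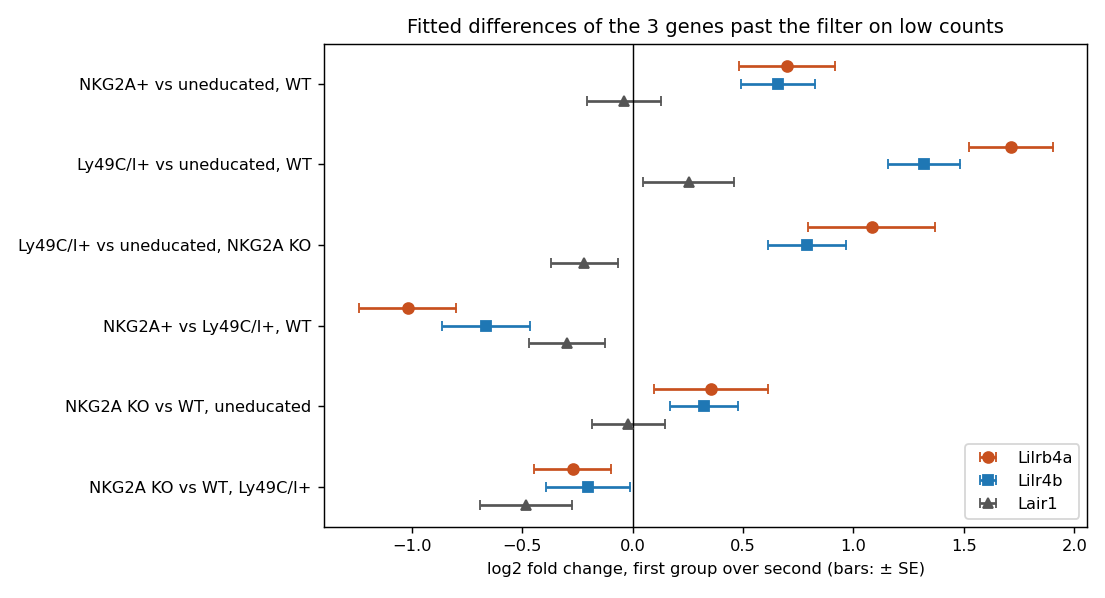
Log2 fold change of the first named group over the second, with its SE as a bar, for the 3 genes past the filter on low counts, in the 6 comparisons of 2 groups. *Lilrb4a* and *Lilr4b* lie on the same side of 0 in each comparison, with the largest value (1.71 for *Lilrb4a*) in WT Ly49C/I+ over uneducated cells, and *Lair1* lies within 0.5 of 0 throughout.

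Ordered by mean level, both genes ran from WT uneducated through KO uneducated, NKG2A+ and KO Ly49C/I+ to WT Ly49C/I+ cells. For *Lilrb4a* the means and SDs were 23.6 ± 7.28, 30.0 ± 16.0, 38.0 ± 15.2, 64.2 ± 14.4 and 77.1 ± 16.2 CPM (n = 9, 8, 9, 5 and 6). For *Lilr4b* they were 78.0 ± 15.4, 97.2 ± 28.2, 123 ± 41.9, 170 ± 37.5 and 195 ± 50.7 CPM. Of the 4 steps between neighbours in this order, the step from NKG2A+ to KO Ly49C/I+ cells (26.2 CPM for *Lilrb4a* and 47.0 CPM for *Lilr4b*) exceeded the SD of both groups, and the other 3 did not for either gene. Per kilobase of the transcripts named above, WT Ly49C/I+ cells held 55.8 ± 11.7 CPM of *Lilrb4a* and 106 ± 27.6 CPM of *Lilr4b* (SD, n = 6).

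The levels of the pair were correlated over the 37 libraries. Among the 9287 genes at 5 CPM or more in 0.5 or more of the 37 libraries, each was the gene most like the other, with a Pearson correlation of log2(CPM + 1) of 0.889. This is a description over 37 libraries that share group structure, and the rise by which both genes were chosen enters it. Whether they move together within a group was not tested. After its neighbour, *Lilrb4a* was most like the predicted gene *Gm20743* (0.829) and the helicase gene *Eif4a2* (0.813), and *Lilr4b* most like the T cell receptor joining segment *Trbj1-3* (0.848) and the splicing factor gene *Srsf7* (0.823). Reads on *Lilr4b* per read on *Lilrb4a* averaged 3.45 ± 0.803 in WT uneducated, 3.69 ± 1.30 in KO uneducated and 3.41 ± 0.938 in NKG2A+ cells. In Ly49C/I+ cells the ratio averaged 2.51 ± 0.361 in WT and 2.67 ± 0.419 in KO mice, with ranges that overlapped those of the other groups.

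**Figure D3:**
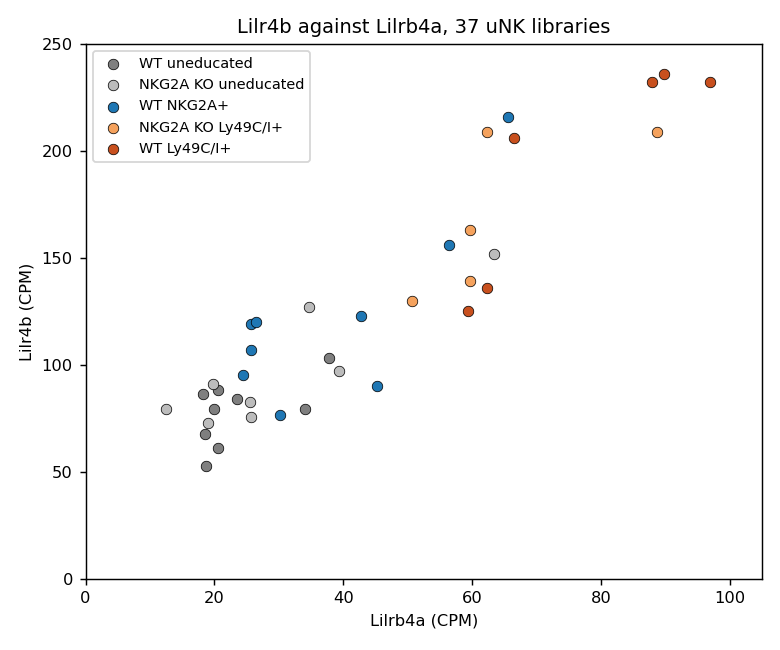
CPM of *Lilr4b* against CPM of *Lilrb4a*, 1 point per library, coloured by group. The 37 points lie along 1 band, with WT uneducated cells at the lower left and WT Ly49C/I+ cells at the upper right, and NKG2A+ libraries spread from one to the other.

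The split of reads within the pair is uncertain. Of all stretches of 50 bases in the annotated transcripts, 46.7% in *Lilrb4a* and 24.5% in *Lilr4b* also occur in another gene, mainly in each other and in *Gm49339*, which spans both on the same strand. *Gm49339* overlaps 35.3% of the exonic bases of *Lilrb4a* and 2.24% of those of *Lilr4b*, and had at most 1 read in a library. How many *Lilrb4a* reads this overlap made ambiguous was not tested, and it bears on its CPM, its level per kilobase and the ratio within the pair. Reads without a unique position made up 11.3% to 13.8% of each library and were not given to genes. *Gm40645*, on the opposite strand, overlaps 2.51% of the exonic bases of *Lilrb4a* and had at most 8 reads.

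Because *Lilrb4a* is also known from myeloid and mast cells, markers of such cells are given beside it. The summed level of 12 monocyte and macrophage markers was 34.5 to 153 CPM in WT uneducated, 12.1 to 345 CPM in NKG2A+ and 20.2 to 422 CPM in WT Ly49C/I+ libraries. In KO mice it was 34.7 to 96.9 CPM in uneducated and 8.60 to 155 CPM in Ly49C/I+ libraries. At 5 or more CPM on average were 4, 6, 5, 3 and 3 of the 12 markers in these groups. The summed medians were 99.5, 86.4, 98.0, 75.0 and 34.5 CPM in the same order. *Lyz2*, the most abundant gene of the list, averaged 85.9 ± 116 CPM in WT Ly49C/I+ and 20.2 ± 32.7 CPM in KO Ly49C/I+ cells (SD). Single markers went either way from uneducated to Ly49C/I+ cells. *C1qb* averaged 4.08 and 16.0 CPM in WT and 3.46 and 5.75 CPM in KO mice. *Csf1r* averaged 7.76 and 4.88 CPM in WT and 3.31 and 1.15 CPM in KO mice. The 9 markers of mast cells, basophils and eosinophils summed to 19.8 to 85.6 CPM in WT uneducated and 5.56 to 22.2 CPM in WT Ly49C/I+ libraries. *Mcpt8*, *Cpa3* and *Hdc* averaged 32.6, 11.9 and 3.18 CPM in WT uneducated cells. In Ly49C/I+ cells they averaged 6.54, 1.75 and 2.48 CPM in WT and 2.08, 2.87 and 2.52 CPM in KO mice. *Fcer1a*, *Ms4a2* and *Mcpt4* had no read in either Ly49C/I+ group, but averaged only 0.121, 0.176 and 0.551 CPM in WT uneducated cells. The 8 dendritic cell markers summed to more in Ly49C/I+ cells (medians 572 CPM in WT and 558 CPM in KO) than in uneducated cells (334 and 358 CPM). Most of that sum was *Itgax*, an integrin gene that NK cells also express. *Zbtb46*, the one other marker of this list at 5 CPM or more on average, held 23.0 ± 10.9 CPM in WT uneducated and 39.7 ± 11.6 CPM in WT Ly49C/I+ cells, and 24.1 ± 5.70 and 31.1 ± 5.80 CPM in the KO groups (SD). These differences had the direction of *Lilrb4a*, but in NKG2A+ cells *Zbtb46* held 22.8 ± 5.98 CPM and did not rise. Among markers at lower levels, *Flt3* and *Xcr1* averaged 2.03 and 3.28 CPM in WT uneducated and 0.703 and 0.248 CPM in WT Ly49C/I+ cells. In KO mice they averaged 2.99 and 2.06 CPM in uneducated and 0.175 and 0.426 CPM in Ly49C/I+ cells. *Clec9a* and *Siglech* had no read in either Ly49C/I+ group, but averaged at most 1.09 CPM in uneducated cells. The neutrophil markers summed to at most 57.1 CPM in any library, and the stroma, endothelium and trophoblast markers to 20.9 to 916 CPM in NKG2A+ and 10.2 to 182 CPM in all other libraries. The 8 T cell markers summed to 85.7 to 239 CPM. What part such cells have in the *Lilrb4a* values was not tested, and fewer cells carrying a transcript cannot be told apart from less transcript per cell in these bulk libraries.

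*Lair1*, the collagen receptor, was present in every library at 15.7 to 63.8 CPM and did not pass the test in any comparison. WT uneducated libraries ran from 15.7 to 47.3 CPM (median 36.1 CPM), NKG2A+ from 25.6 to 43.9 CPM (median 33.6 CPM) and WT Ly49C/I+ from 29.3 to 63.8 CPM (median 41.6 CPM). KO uneducated libraries ran from 29.1 to 43.1 CPM (median 33.5 CPM), and KO Ly49C/I+ libraries held 26.9, 34.4, 38.9, 27.7 and 25.7 CPM. All 5 groups overlapped. By edgeR's quasi-likelihood test, with Benjamini-Hochberg adjustment over all genes tested, the log2 fold change was -0.04 ± 0.168 (SE, adjusted p = 0.911) for NKG2A+ over uneducated cells, in a comparison where 15.0% of 9339 genes passed the adjusted threshold of 0.05. It was 0.25 ± 0.206 (adjusted p = 0.490) for WT Ly49C/I+ over uneducated cells, where 9.2% of 9292 genes passed, and -0.22 ± 0.152 (adjusted p = 0.354) for the same populations in KO mice, where 16.3% of 9299 passed. NKG2A+ differed from Ly49C/I+ cells by -0.30 ± 0.172 (adjusted p = 0.387, 2.73% of 9308 genes passed).

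Between genotypes *Lair1* differed by -0.02 ± 0.164 in uneducated (edgeR adjusted p = 0.989), and for Ly49C/I+ cells the difference was -0.48 ± 0.208 (adjusted p = 0.441). The Ly49C/I+ effect differed between genotypes by -0.46 ± 0.264 (adjusted p = 0.999). In each of these 3 comparisons 0.0% of genes passed (0 of 9288, 9344 and 9322 by edgeR). At an unadjusted p under 0.05 there were 619, 992 and 407 genes, and DESeq2 called 1, 118 and 1. The genes most like *Lair1* across the 37 libraries were *Chmp2b* (Pearson correlation 0.720), *Med8* (0.670) and *Armc6* (0.662), and its correlation with *Lilrb4a* was -0.07.

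The other 4 receptors stayed below the filter on low counts in every comparison. *Pirb* had reads in 23 of 37 libraries and reached at most 5.22 CPM, and group means ran from 0.707 ± 0.805 CPM in KO Ly49C/I+ to 1.62 ± 2.08 CPM in WT Ly49C/I+ cells (SD). *Cd300a* had reads in 32 libraries and reached at most 10.4 CPM, with group means from 1.40 ± 1.79 CPM in KO Ly49C/I+ to 3.48 ± 3.98 CPM in WT Ly49C/I+ cells. Libraries with and without reads occurred in 4 of the 5 groups for *Cd300a* and in all 5 for *Pirb*. Two-sided exact permutation tests on the difference of mean log2(CPM + 1) gave p between 0.447 and 0.992 for *Pirb* and between 0.294 and 0.978 for *Cd300a* in 6 comparisons each. *Pirb* shares 34.0% of its stretches of 50 bases with other genes, mainly *Gm14548*, *Pira2* and *Lilra6*, so its few reads are uncertain too.

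*Ceacam1* was read in uneducated and NKG2A+ libraries and was almost without reads in Ly49C/I+ ones. WT uneducated libraries ran from 0 to 67.5 CPM (median 2.12 CPM), and 6 of the 9 had reads. Replicate 5, whose second label line repeats that of replicate 4 while its title and library name give 5, alone held 1006 of the 1228 reads of this group, and without it the mean was 1.63 ± 1.60 CPM (SD, n = 8). NKG2A+ libraries ran from 0 to 4.63 CPM (median 1.55 CPM) with reads in 6 of 9, and KO uneducated libraries from 0 to 6.78 CPM (median 1.52 CPM) with reads in 6 of 8. WT Ly49C/I+ cells had 15 reads, all in replicate 2, and the other 5 libraries had 0. KO Ly49C/I+ cells had 0 reads in 5 libraries, which allows up to 3 reads over the group, or 0.0335 CPM. Pooled over its libraries, KO uneducated *Ceacam1* (281 reads, 2.02 CPM) was thereby at least 60.2-fold higher than in KO Ly49C/I+ cells, for counting error only.

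By two-sided exact permutation test, *Ceacam1* in Ly49C/I+ cells lay below its level in uneducated cells, by a difference of mean log2(CPM + 1) of -1.28 in KO mice (p = 0.0311) and -1.53 in WT mice (p = 0.04995). It was higher by 0.91 in NKG2A+ than in Ly49C/I+ cells (exact p = 0.0486). The other 3 comparisons gave exact p of 0.442 to 1.0. These p are not adjusted for the 21 exact tests made on the 4 genes of low level, of which these 3 fell under 0.05. Leaving out 1 library at a time, the exact p of the KO comparison rose above 0.05 without uneducated replicate 4 (exact p = 0.0543). That of the WT comparison rose above 0.05 in 12 of 15 cases (exact p up to 0.0914), with a difference of -0.97 without uneducated replicate 5. That of NKG2A+ against Ly49C/I+ cells did so in 11 of 15 cases (exact p up to 0.0899). Markers of mast cells, basophils and eosinophils moved in the same direction, with summed medians of 45.3 CPM in WT and 37.8 CPM in KO uneducated, 17.4 CPM in NKG2A+, and 8.08 CPM in WT and 5.51 CPM in KO Ly49C/I+ libraries, and the stroma, endothelium and trophoblast markers did so too, with summed medians of 98.7 and 66.7 CPM in WT and KO uneducated, 75.4 CPM in NKG2A+, and 48.0 and 21.8 CPM in WT and KO Ly49C/I+ libraries. Of these, the epithelial gene *Epcam* averaged 65.5 and 49.9 CPM in WT and KO uneducated, 26.8 CPM in NKG2A+, and 30.6 and 20.4 CPM in WT and KO Ly49C/I+ cells. Unlike *Ceacam1*, it was not higher in NKG2A+ than in WT Ly49C/I+ cells. *Krt8*, *Krt18* and *Prl8a2* of the same list averaged 4.87 ± 11.8, 4.59 ± 8.52 and 23.4 ± 29.1 CPM in WT uneducated cells (SD). They were highest on average in NKG2A+ cells, at 5.13 ± 6.08, 9.28 ± 10.2 and 192 ± 311 CPM. In Ly49C/I+ cells they averaged 0.109, 2.58 and 23.8 CPM in WT and 0.0929, 0.105 and 5.32 CPM in KO mice. KO uneducated cells held 0.0698, 0.971 and 15.2 CPM on average. The part of either list in the *Ceacam1* values was not tested. In edgeR fits without a filter on low counts, *Ceacam1* passed in KO Ly49C/I+ against uneducated cells (adjusted p = 0.0318, with 3.61% of 24592 genes passing). It did not pass for WT Ly49C/I+ (adjusted p = 0.128, 1.75% of genes passing) or NKG2A+ cells against uneducated ones (adjusted p = 0.226, 3.91% passing) or for NKG2A+ against Ly49C/I+ cells (adjusted p = 0.288, 0.402% passing). *Ceacam1* shares 30.4% of its stretches of 50 bases with other genes, mainly *Ceacam2*, which had 0 reads in all 37 libraries.

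*Siglecg* had 100 reads in all, in WT uneducated replicates 2, 6 and 8 (59, 23 and 18 reads), and 0 in the other 34 libraries. The pooled level in WT uneducated cells was 0.657 CPM, and the limits that 0 reads allow were 0.0196 CPM in NKG2A+, 0.0299 CPM in WT Ly49C/I+, 0.0215 CPM in KO uneducated and 0.0335 CPM in KO Ly49C/I+ cells. The exact permutation tests against the WT uneducated group gave p from 0.206 to 0.229, as 6 of its 9 libraries also had 0 reads. In edgeR fits without a filter, neither *Pirb* nor *Cd300a* passed in the 6 comparisons of 2 groups, nor *Siglecg* in the 3 where it had reads. The lowest adjusted p of *Siglecg* there was 0.0654 (edgeR), for NKG2A+ against uneducated cells. In those fits 0.0% of genes passed between genotypes in either population.

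**Figure D4:**
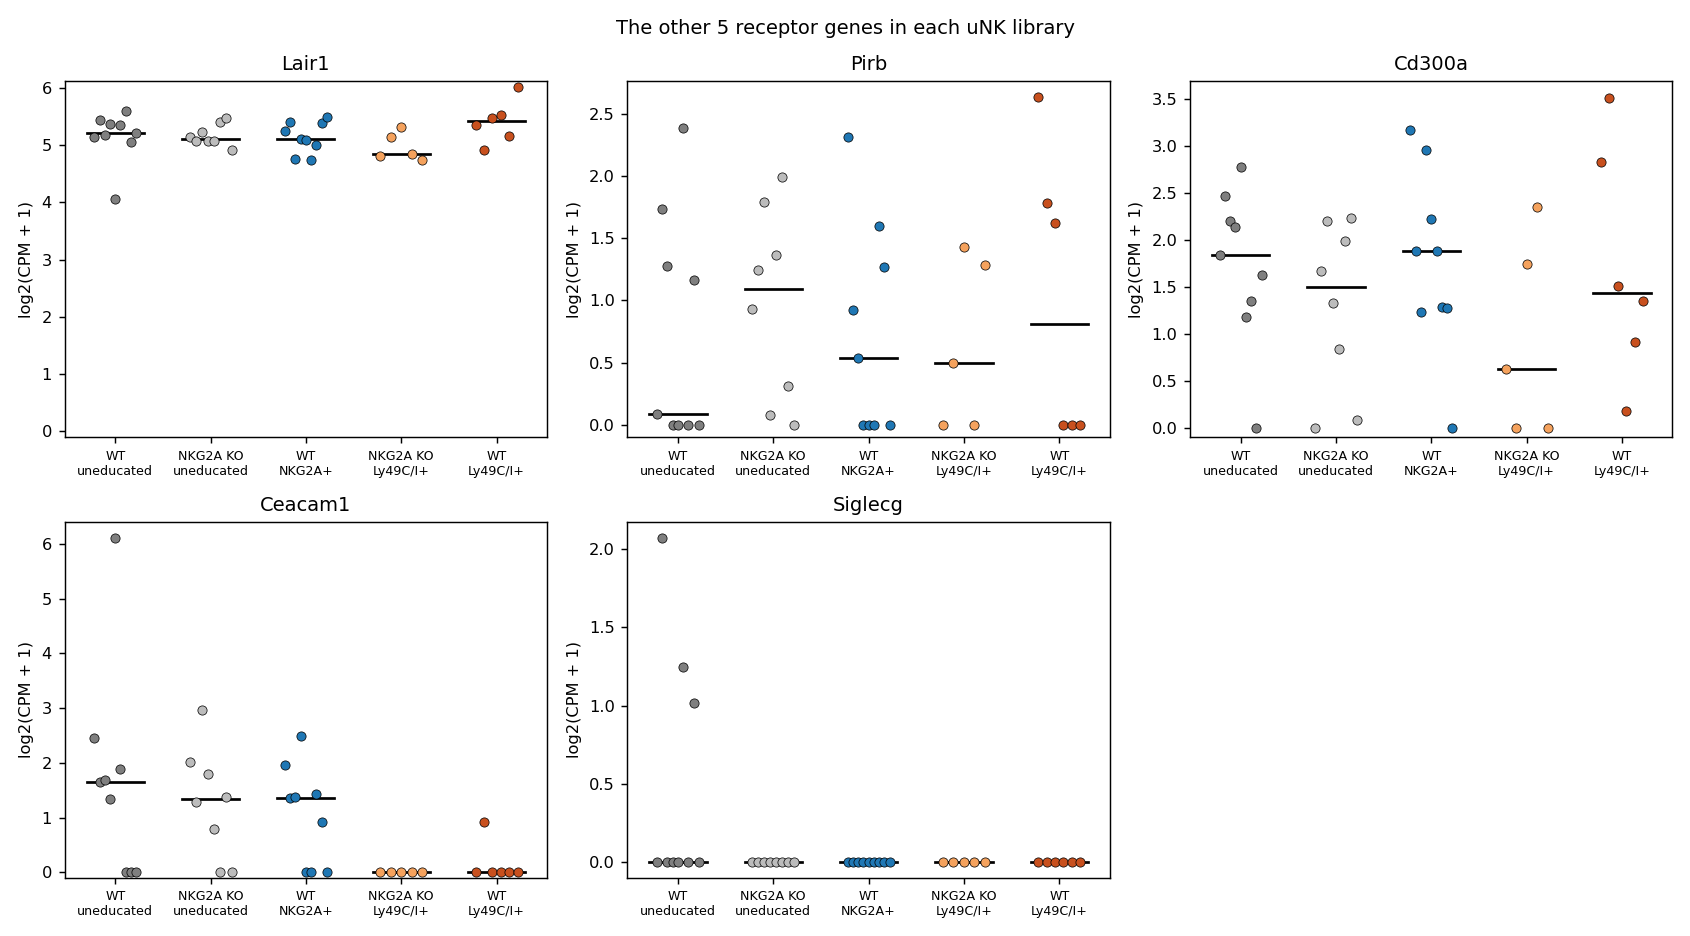
Log2(CPM + 1) of *Lair1*, *Pirb*, *Cd300a*, *Ceacam1* and *Siglecg* in each of the 37 libraries, by group, with the group median as a line. *Lair1* is present in every library, *Ceacam1* has points above 0 in 1 of the 11 Ly49C/I+ libraries, and *Siglecg* in 3 WT uneducated libraries alone.

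Per kilobase of transcript the order of levels in WT uneducated cells was led by the pair and *Lair1*. *Lilr4b* averaged 42.5 ± 8.39, *Lilrb4a* 17.1 ± 5.27 and *Lair1* 14.4 ± 3.55 CPM per kilobase (SD, n = 9). *Ceacam1* averaged 3.11 ± 7.66, through replicate 5, while *Cd300a*, *Pirb* and *Siglecg* averaged 0.593, 0.271 and 0.242 CPM per kilobase.

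Among relatives of the members, *Cd300lf* rose in NKG2A+ and Ly49C/I+ cells against uneducated ones. This ITIM receptor gene of the CD300 family was the one CD300 relative of 11 that passed the filter on low counts. It averaged 12.4 ± 3.31 CPM in WT uneducated, 24.0 ± 7.74 CPM in NKG2A+ and 27.3 ± 7.65 CPM in WT Ly49C/I+ cells (SD). The log2 rise was 0.96 ± 0.229 (SE) for NKG2A+ cells (edgeR adjusted p = 0.00642) and 1.14 ± 0.236 for WT Ly49C/I+ cells (adjusted p = 0.00703). In KO Ly49C/I+ cells it rose by 0.91 ± 0.246 (adjusted p = 0.0193), which missed the threshold without KO Ly49C/I+ replicate 5 (adjusted p = 0.0647) and with the replicate number as a block (0.67, adjusted p = 0.11). All 6 measured relatives of the LILR and PIR genes and all 12 of the CEACAM genes stayed below the filter, and of 8 Siglec relatives *Mag* alone passed it and was not called in any comparison.

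Of 13 other leukocyte ITIM receptors, 6 or 7 passed the filter, and the calls among them went in both directions. In NKG2A+ cells 1 rose and 2 fell, in WT Ly49C/I+ cells 0 rose and 2 fell, and in KO Ly49C/I+ cells 1 rose and 0 fell, against uneducated cells. Over all genes tested, 7.47% rose and 7.56% fell in NKG2A+, 4.5% rose and 4.7% fell in WT Ly49C/I+, and 7.34% rose and 8.99% fell in KO Ly49C/I+ cells. *Pecam1*, an adhesion receptor, fell by 0.76 on the log2 scale in NKG2A+ cells (edgeR adjusted p = 8.43e-05), and in WT Ly49C/I+ cells it fell by 0.68 (adjusted p = 0.0032). *Klrg1*, a cadherin receptor of mature NK cells, likewise fell by 0.73 (NKG2A+, adjusted p = 7.53e-05) and by 0.53 (WT Ly49C/I+, adjusted p = 0.0182). The inhibitory Fc receptor gene *Fcgr2b* rose by 1.15 in NKG2A+ cells (adjusted p = 0.0391) and *Pdcd1* (PD-1) by 0.89 in KO Ly49C/I+ cells (adjusted p = 0.0348). These 2 calls were lost in 11 of 18 and in 9 of 13 fits with 1 library left out, with adjusted p up to 0.0768 and 0.096.

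Among the kinases, phosphatases and adaptors listed for ITIM signalling, not all of them specific to it, every call but that of *Ptpn11* was upward. In NKG2A+ cells 5 of 16 tested genes rose and 0 fell, in WT Ly49C/I+ cells 3 of 16 rose and 1 fell, and in KO Ly49C/I+ cells 4 of 17 rose and 0 fell. Over all genes tested, the shares that rose and fell in these comparisons were those given above for the other ITIM receptors. Several of the counted calls were lost when 1 library was left out, *Gab3* in NKG2A+ cells in 12 of 18 such fits (adjusted p up to 0.0898) and *Dok2* in WT Ly49C/I+ cells in 11 of 15 (adjusted p up to 0.126). The median log2 fold change of the list was 0.20, 0.09 and 0.26, against 0.01, 0.01 and 0.02 for all genes tested. *Lck*, a Src family kinase, rose by 0.74 in NKG2A+ (adjusted p = 0.00118, edgeR), 0.64 in WT Ly49C/I+ (adjusted p = 0.0185) and 0.49 in KO Ly49C/I+ cells (adjusted p = 0.00475). Its WT Ly49C/I+ call was lost without a filter on low counts (edgeR adjusted p = 0.0595). *Inpp5d*, which encodes SHIP-1, rose by 0.57 in WT Ly49C/I+ (adjusted p = 0.0245) and 0.34 in KO Ly49C/I+ cells (adjusted p = 0.0238), calls lost without WT Ly49C/I+ replicate 1, 2, 5 or 7 (adjusted p up to 0.0656) and without KO Ly49C/I+ replicate 4 or 7 (adjusted p up to 0.0821). Both calls were also lost without a filter on low counts, and the KO call with all 5 groups in 1 fit and with the replicate block, so that *Inpp5d* held in 17 of 22 alternatives in WT and 15 of 20 in KO mice (adjusted p up to 0.0783 and 0.0821). *Ptpn11*, which encodes SHP-2, fell by 0.71 in WT Ly49C/I+ cells (adjusted p = 0.0433), a call lost in 9 of 15 such fits (adjusted p up to 0.0915). Of 6 adaptors and kinases of activating receptors, 1, 0 and 2 rose in the same order of comparisons and 0 fell, beside the same shares over all genes. *Hcst* (DAP10) rose by 0.45 in NKG2A+ (adjusted p = 0.0178) and 0.49 in KO Ly49C/I+ cells (adjusted p = 0.00291). *Syk* rose by 0.44 in KO Ly49C/I+ cells (edgeR adjusted p = 0.0372), a call lost in 9 of 13 fits with 1 library left out (adjusted p up to 0.0909).

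Of 15 reported ligands of these receptors, 7 or 8 passed the filter in the sorted cells themselves. In NKG2A+ cells 2 rose and 2 fell, in WT Ly49C/I+ cells 2 rose and 1 fell, and in KO Ly49C/I+ cells 3 rose and 1 fell, beside the same shares over all genes. Of the counted rises, *H2-D1* in WT Ly49C/I+ cells was lost in 10 of 15 fits with 1 library left out (adjusted p up to 0.123) and *B2m* in KO Ly49C/I+ cells in 10 of 13 (adjusted p up to 0.105). *Itgb3*, the β3 chain of the Lilrb4a ligand αvβ3, fell from 155 ± 59.7 CPM in WT uneducated to 84.5 ± 19.0 CPM in NKG2A+ cells (log2 change -0.87, adjusted p = 0.00404, edgeR) and 69.6 ± 16.1 CPM in WT Ly49C/I+ cells (-1.16, adjusted p = 0.00595). In KO Ly49C/I+ cells it fell by 1.06 (adjusted p = 0.0289), a call lost without KO uneducated replicate 1, 2 or 3 or KO Ly49C/I+ replicate 4 or 5 (adjusted p up to 0.08), without a filter on low counts and with the replicate block (adjusted p = 0.109). *H2-K1*, the MHC class I heavy chain gene of the Pirb and Ly49 ligands, rose by 0.33 (NKG2A+, adjusted p = 0.0122) and by 0.41 (WT Ly49C/I+, adjusted p = 0.0156), the latter lost without WT Ly49C/I+ replicate 7 (adjusted p = 0.0592) and without a filter on low counts. It rose by 0.34 in KO Ly49C/I+ cells (adjusted p = 0.0176).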

How the data were processed

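The authors sorted the cells, amplified full-length cDNA (SMART-Seq v4, Nextera XT), trimmed reads with Trim Galore 0.5.0 and mapped them with STAR 2.7.1 to GRCm38. The authors deposited raw counts of reads per Ensembl gene for each library (53700 genes, 52093 with a symbol in GENCODE M21), with a counting program and strand setting "not given in the sources used here". The 5 summary lines per file that name no gene were left out of library sizes, and reads given to no gene made up 2.69% to 6.83%. This share differed between groups. It was 2.9% to 4.47% in WT uneducated, 3.01% to 4.49% in NKG2A+ and 4.16% to 6.83% in WT Ly49C/I+ libraries. In KO mice it was 2.69% to 5.67% in uneducated libraries, highest in replicate 4, and 3.94% to 5.26% in Ly49C/I+ libraries. What part this share has in the *Lilrb4a* and *Lilr4b* values was not tested. CPM used TMM-scaled library sizes. Groups of 2 were compared with edgeR 4.0.16 in R 4.3.3 (quasi-likelihood test, genes with 5 CPM or more in 0.5 or more of a comparison's libraries, Benjamini-Hochberg adjusted p under 0.05), and the Ly49C/I+ effect between genotypes as an interaction over 4 groups. The SE of a log2 fold change was its size divided by the square root of the F statistic. Genes below the filter were tested by two-sided exact permutation (difference of mean log2(CPM + 1)), and a count of 0 was taken to allow 3 reads over a group. As no molecular identifiers were used, reads are not independent molecules and such limits cover counting error only. For WT Ly49C/I+ cells the replicate numbers (1, 2, 4, 5, 7 and 8) follow the second label line. Tests were tried on simulated counts. The alternatives were RLE factors, DESeq2 1.42.0, other filters, GC and length offsets, all groups in 1 fit, the replicate number as a block, 8 and 8 libraries for NKG2A+ cells, a pseudocount of 0.5 and each library left out. Named were all members, the 3 genes most correlated with each member past the filter, and up to 4 of the largest calls of each list. The members, lists and tests were chosen with earlier results of these data known. Stretches of 50 bases were compared among GENCODE M21 transcripts.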

Additional observations from a re-analysis of the deposited data

Results flagged for a closer look

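In 30 groups with reads, the highest or lowest library of a member was compared with the rest by its gap to the nearest library, as a share of the group's range, and 5 lay past Dixon's 95% limit. For normally distributed values chance gives about 1 in 20 groups, a rate that need not hold for genes with 0 reads in many libraries. WT uneducated replicate 5 held 67.5 CPM of *Ceacam1*, with the next library at 4.5 CPM, and was also the lowest of its group for *Lair1*, at 15.7 CPM with the next at 32.1 CPM. KO uneducated replicate 3 held 6.78 CPM of *Ceacam1* with the next at 3.05 CPM, and WT Ly49C/I+ replicate 2 held 0.893 CPM where the other 5 libraries had 0 reads. WT uneducated replicate 2 held 3.20 CPM of *Siglecg* with the next at 1.38 CPM.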

How the results depend on the processing

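*Lilrb4a* and *Lilr4b* moved by less than the spread between replicates (1 SD) in all 167 refits each, with 1 change of sign, *Lilr4b* for KO over WT Ly49C/I+ cells (0.06 with the replicate block). The Ly49C/I+ over uneducated log2 fold change ran from 1.63 to 1.81 for *Lilrb4a* and 1.25 to 1.41 for *Lilr4b* in WT mice, and from 0.94 to 1.33 and 0.70 to 0.91 in KO mice. *Lair1* passed the threshold in none of its 167 refits. Its difference turned sign near 0 in uneducated cells between genotypes (0.02 with GC and length offsets, 0.03 with the replicate block, and -0.12 to 0.04 without 1 library) and in NKG2A+ over uneducated cells (-0.14 to 0.02 without 1 library). Without 1 library, the *Ceacam1* difference was -1.73 to -0.97 for WT Ly49C/I+ over uneducated cells, 0.73 to 1.06 for NKG2A+ over Ly49C/I+ cells, -1.46 to -1.04 for Ly49C/I+ over uneducated cells in KO mice and -0.64 to 0.15 for KO over WT uneducated cells. It was 0.06 for NKG2A+ over uneducated cells with 8 and 8 libraries, which leaves out WT uneducated replicate 5. Genes called for WT Ly49C/I+ over uneducated cells numbered 855, against 451 without a filter, 1528 with all groups in 1 fit and 466 to 1227 without 1 library (539, 564 and 466 without WT uneducated replicate 3 and Ly49C/I+ replicates 5 and 7). For NKG2A+ over Ly49C/I+ cells they numbered 254, against 558 by DESeq2, 104 without a filter, 114 with GC and length offsets and 147 to 306 without 1 library (168 or fewer without NKG2A+ replicate 2 or 8 or Ly49C/I+ replicate 2, 5 or 7). In KO mice they numbered 1519, against 889 without a filter and 967 (without Ly49C/I+ replicate 4) to 1763 without 1 library. The replicate block gave 748 there. In none of the 6 pairs of groups did every same-numbered pair correlate above 0.1, the rule set for pairing, so the main fits took no pairs. Libraries were still closest to their own number in 6 of 6 NKG2A+ and Ly49C/I+ pairs (lowest correlation 0.0342). This held in 5 of 6 WT Ly49C/I+ and uneducated pairs (lowest 0.074), 6 of 9 NKG2A+ and uneducated pairs (lowest -0.0266) and 3 of 5 KO pairs (lowest 0.0242). Between genotypes it held in 3 of 8 uneducated and 1 of 4 Ly49C/I+ pairs. Whether same-numbered libraries share an animal or a day was not tested, and the main SEs and p are unpaired. The cause of the moves in genes called was not tested. Where 0 genes were called, DESeq2 called 1 (uneducated, between genotypes), 118 (Ly49C/I+, between genotypes) and 1 (effect between genotypes). For Ly49C/I+ cells between genotypes all groups in 1 fit gave 18, and leaving out 1 library gave 0 to 15 (15 without WT replicate 1, 2 without KO replicate 8). Of 35 calls of the listed genes followed through the alternatives, 18 held in every one. At these depths levels under about 1 CPM rest on fewer than 20 reads.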
